A study of Mus musculus with 2 samples.

Results

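Of the 24015 genes in the expression table, 9 genes of interferon signalling were chosen by name and are described here: the receptor chain genes Ifnar1 and Ifnar2, the STAT genes Stat2 and Stat3, and the interferon regulatory factor genes Irf1, Irf2, Irf3, Irf7 and Irf9. All 9 were found, and all passed the minimum of 1 RPKM in a library (reads per kilobase of gene, scaled to the size of the library) that a gene needed to be compared. The data came from poly(A)+ RNA-seq of mouse embryonic fibroblasts, connective tissue cells grown from embryos in DMEM with fetal bovine serum and penicillin-streptomycin, with no interferon treatment named in the labels. One culture was labelled Adar2-WT (genotype Adar2+/+) and the other Adar2-KO (genotype Adar2-/-, lacking the RNA-editing enzyme ADAR2), with 1 library each. The labels give neither the deleted exon nor the passage, nor whether the cells came from 1 embryo or several.

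Type I interferons bind a receptor made of the IFNAR1 and IFNAR2 chains, whose attached kinases TYK2 and JAK1 phosphorylate STAT factors, STAT2 among them. STAT2 and IRF9 are parts of ISGF3, the complex that binds the interferon-stimulated response element (ISRE) in the promoters of interferon-stimulated genes. Several parts of the pathway are themselves such genes: Irf7, Irf9 and Stat2 are raised by ISGF3, and Irf1 is raised through the gamma-activated site (GAS), which STAT dimers bind. Others, such as the receptor chains and Irf3, are made without stimulation in most cell types. By this rough division, Ifnar1, Ifnar2, Stat3, Irf2 and Irf3 are called constitutive below, and Stat2, Irf1, Irf7 and Irf9 interferon-induced. The classes are names only, since induction was not measured here. Irf2, called constitutive, holds cores of both elements near its start, as given below.

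Depth was alike, with totals of 9446911 (WT-labelled) and 9546997 (KO-labelled) reads used for RPKM. The targeted gene, listed as Adarb1, had 18.4 RPKM (1155 reads) in WT-labelled and 25.8 RPKM (1633 reads) in KO-labelled cells. The table gives 1 value per gene and library, so loss of a single exon could not be checked. The cultures are therefore named by their labels, on which each direction rests. There is no second culture of either label, so no difference has a replicate check. Intervals are at the 95% level and hold the error of counting alone. In RNA from a whole culture, fewer cells expressing a gene and less RNA per cell cannot be told apart. The 10 listed fibroblast markers were all above 1 RPKM in both libraries, with sums of 464 RPKM (WT-labelled) and 482 RPKM (KO-labelled). The sums hide markers that went opposite ways. With the WT-labelled value first, Thy1 had 9.40 and 72.1 RPKM and Dcn 29.7 and 12.3 RPKM.

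The 2 classes of member differed in how far the libraries lay apart. The classes were set with earlier results of these data known, so the contrast is a description only. The 5 constitutive genes were all within 2-fold, with log2 ratios of KO-labelled over WT-labelled RPKM + 1 between -0.27 and -0.02 and a median of -0.23. The 4 interferon-induced genes ranged from -3.70 to 0.35 with a median of -0.95. Over all 13867 compared genes the median was 0.01, and the quartiles were -0.21 and 0.22. Counts of genes 2-fold apart are on this RPKM + 1 scale, while fold values given for single genes are ratios of RPKM, without the added 1. Of the 9 members, 2 were lower by 2-fold or more in the KO-labelled culture (Irf7 and Irf9) and 0 at least 2-fold higher. Of all compared genes, 7.46% were at least 2-fold lower and 4.42% at least 2-fold higher; without the added 1 these shares were 9.58% and 6.19%.

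**Figure D1:**
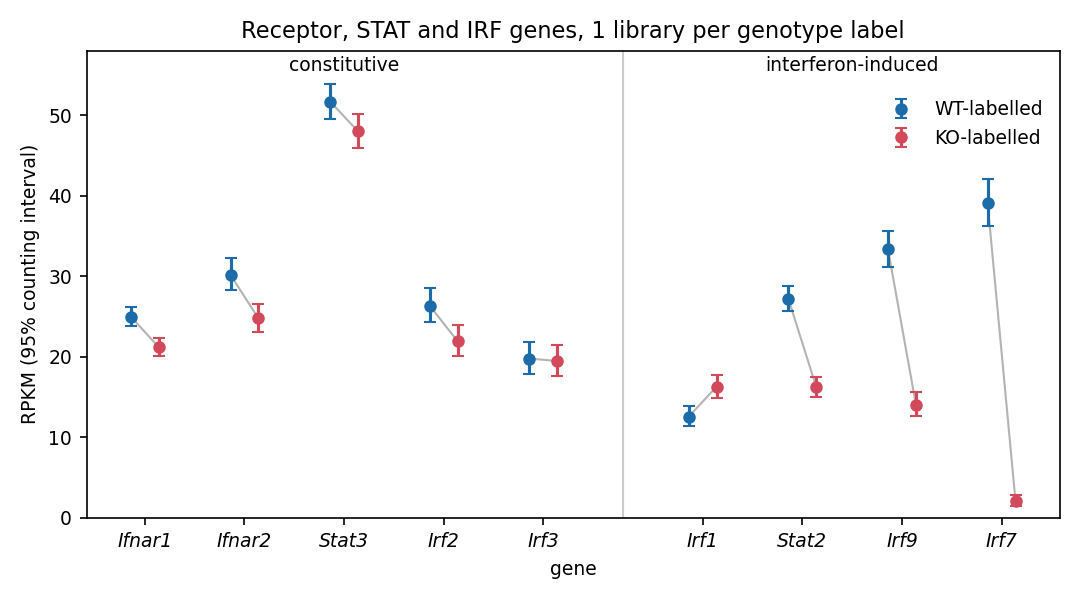
RPKM of the 9 genes (vertical axis, from 0) in the WT-labelled culture (blue) and the KO-labelled culture (red), 1 point per library with its 95% counting interval, constitutive genes on the left and interferon-induced genes on the right. The largest gap is that of Irf7 (39.1 and 2.08 RPKM), the points of Irf3 lie almost level (19.8 and 19.5 RPKM), and Irf1 is the 1 gene whose KO-labelled point is the higher.

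Both chains of the type I interferon receptor were expressed in both libraries. Ifnar1, which encodes the chain that carries TYK2, had 25.0 RPKM (1654 reads) in WT-labelled and 21.2 RPKM (1419 reads) in KO-labelled cells. As a ratio of RPKM, this was 1.18-fold lower in the KO-labelled culture (interval 1.10 to 1.27). Ifnar2, which encodes the chain that carries JAK1, had 30.2 RPKM (905 reads) and 24.8 RPKM (751 reads), 1.22-fold lower (interval 1.10 to 1.34). The proportion of the chains was thus close in both libraries: Ifnar2 stood at 1.21 times the RPKM of Ifnar1 in the WT-labelled and at 1.17 times in the KO-labelled culture. Both differences exceeded counting error and stayed far inside 2-fold, at log2 ratios that 20.7% (Ifnar2) and 23.4% (Ifnar1) of compared genes lay below.

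The other receptor chains and kinases were within 2-fold too. Of the 9 genes listed for this step, Ifnar1 and Ifnar2 included, 8 were compared, 0 of them 2-fold apart, with a median log2 ratio of -0.23. With 7.46% of all compared genes at least 2-fold lower and 4.42% higher, 0 of 8 is near the shares over all genes. The kinase genes Jak1 (59.0 and 50.2 RPKM), Tyk2 (20.1 and 17.6 RPKM) and Jak2 (20.9 and 19.5 RPKM) are given with the KO-labelled culture second, as are all pairs below. Jak1 and Tyk2 were lower in the KO-labelled culture beyond counting error, and the interval of Jak2 included no difference. The authors' GFOLD value, a log2 fold change drawn toward 0 by counting error, was -0.089 for Jak1 but 0 for both Tyk2 and Jak2. Il10rb (31.4 and 23.7 RPKM), a shared chain of the IL-10 and type III interferon receptors, and Ifngr2 (37.3 and 29.5 RPKM), of the interferon gamma receptor, were the lowest of the list, 1.32-fold and 1.27-fold lower, with counting intervals that overlap those of both type I chains. Its other chain, Ifngr1, had 35.1 and 36.4 RPKM. The type III receptor gene Ifnlr1 had 17 reads in the WT-labelled and 1 read in the KO-labelled culture and was not compared.

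The libraries lay further apart for Stat2 than for Stat3. Stat3, the factor that carries signals of the IL-6 family, had the highest RPKM of the 9 members in both libraries: 51.7 (2191 reads) in the WT-labelled and 48.0 (2056 reads) in the KO-labelled culture. It was 1.08-fold lower in the KO-labelled culture, with an interval of 1.01 to 1.14. Stat2, the STAT that is specific to ISGF3, had 27.2 RPKM (1129 reads) and 16.2 RPKM (681 reads). It was 1.68-fold lower (interval 1.52 to 1.85), short of 2-fold, at a log2 ratio (-0.71) that 10.3% of compared genes lay below. The interval of the log2 ratio of reads, -0.88 to -0.61 for Stat2, did not overlap that of Stat3, -0.19 to -0.02.

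Of the 5 STAT genes compared, 0 were 2-fold apart, with a median log2 ratio of -0.11. With 7.46% of all compared genes at least 2-fold lower and 4.42% higher, 0 of 5 is near the shares over all genes. Stat5a (21.8 and 15.6 RPKM), which transmits cytokine and growth hormone signals, was the lowest after Stat2. Its near-copy Stat5b (26.5 and 24.5 RPKM) was close, and Stat6 (25.9 and 30.8 RPKM), the IL-4 factor, was the 1 STAT gene that was higher in the KO-labelled culture. Reads of Stat5a and Stat5b, whose sequences are much alike, can be split between them in ways that cannot be followed. Stat4, known from lymphoid cells, had 1 read and 0 reads.

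Among the IRF genes, the libraries lay close for the constitutive Irf3 and far apart for the induced Irf7. These 2 encode the factors that switch on interferon genes after phosphorylation by TBK1 and IKK epsilon, IRF3 in the first wave and IRF7 in the amplifying one. Irf3 had 19.8 RPKM (409 reads) in WT-labelled and 19.5 RPKM (407 reads) in KO-labelled cells, and the interval of its log2 reads ratio, -0.22 to 0.18, included 0. Irf7 had 39.1 RPKM (686 reads) and 2.08 RPKM (37 reads). It was 18.7-fold lower in the KO-labelled culture (interval 13.5 to 26.8), and 52 of the 13867 compared genes had a lower log2 ratio. In the WT-labelled culture Irf7 stood at 1.98 times the RPKM of Irf3, while in the KO-labelled culture Irf3 stood at 9.34 times that of Irf7.

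Irf9, which gives ISGF3 its DNA binding, had 33.4 RPKM (847 reads) in WT-labelled and 14.1 RPKM (361 reads) in KO-labelled cells. It was 2.37-fold lower (interval 2.09 to 2.69), between Stat2 and Irf7 in size. The authors' deposited table gives Irf9 a GFOLD value (a log2 fold change drawn toward 0 by counting error) of -0.98, just inside 2-fold, beside -3.62 for Irf7 and -0.53 for Stat2. Stat2 and Irf9 were thus both lower in the KO-labelled culture, but unequally: Irf9 stood at 1.23 times the RPKM of Stat2 in the WT-labelled and at 0.87 times in the KO-labelled culture.

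Irf1 went the other way. This gene encodes an activator of interferon-responsive and antigen presentation genes that interferon gamma raises strongly. It had the lowest RPKM of the 9 members in the WT-labelled culture, 12.6 (399 reads), and 16.3 (523 reads) in the KO-labelled culture. The value was 1.30-fold higher in the KO-labelled culture (interval 1.14 to 1.48), and the authors' deposited table gives it a GFOLD value of 0.20. Irf2, whose product competes with IRF1 for the same sites, had 26.3 RPKM (618 reads) and 21.9 RPKM (520 reads), 1.20-fold lower (interval 1.07 to 1.35). Irf2 thus stood at 2.10 times the RPKM of Irf1 in the WT-labelled and at 1.34 times in the KO-labelled culture.

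Of the IRF genes outside the 9, Irf5, a factor known mainly from myeloid cells, had 4.25 RPKM (96 reads) and 1.88 RPKM (43 reads), a log2 ratio of -0.86 on the RPKM + 1 scale and 2.26-fold lower as a ratio of RPKM. The lymphoid and myeloid factors Irf4 and Irf8 had 2 reads or fewer in either library. The genes of IRF2-binding proteins, Irf2bp1 (33.8 and 30.7 RPKM), Irf2bp2 (45.8 and 41.7 RPKM) and Irf2bpl (39.2 and 51.4 RPKM), were within 2-fold. In all, 2 of the 9 compared genes of the IRF list were lower by 2-fold or more in the KO-labelled culture, both of them members, and 0 higher. The shares over all compared genes were 7.46% and 4.42%. Without the added 1, Irf5 passes 2-fold as well.

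**Figure D2:**
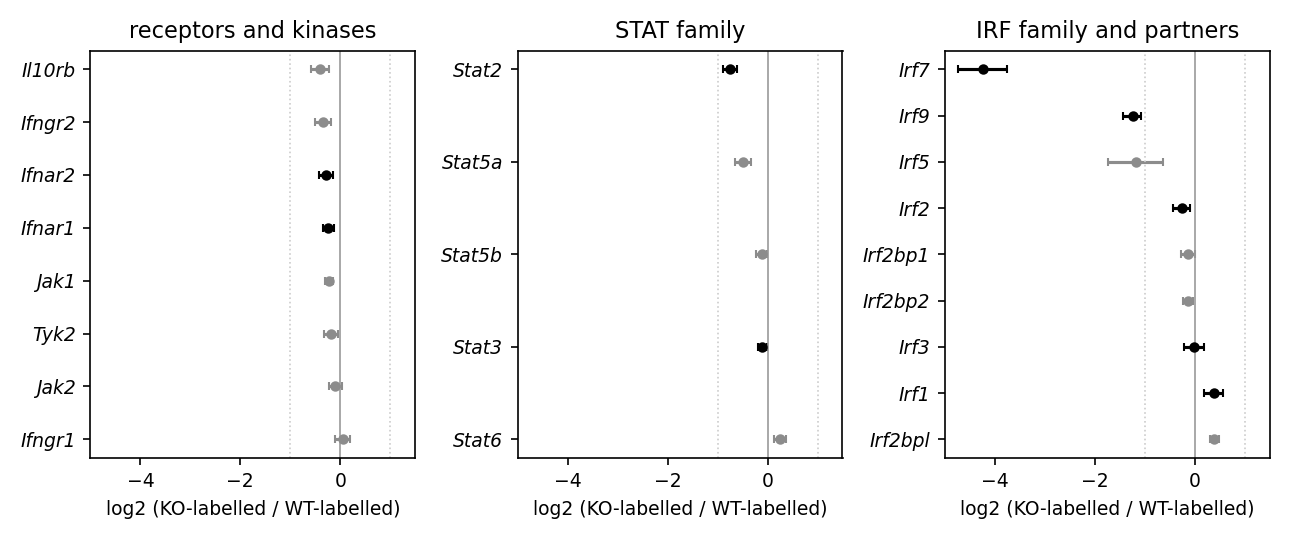
Log2 ratio of reads per total, KO-labelled over WT-labelled (horizontal axis), with 95% counting intervals, for the compared receptor and kinase genes, STAT genes and IRF genes; black points are the 9 members, grey points the rest of each list, and dotted lines mark 2-fold. Receptor, kinase and STAT genes lie within 2-fold, Stat2 being the leftmost of the STAT genes, and Irf7 lies far to the left of every other gene shown, with Irf9 and Irf5 also beyond the dotted line on this scale.

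The order of the RPKM levels differed between the libraries. In the WT-labelled culture the order was Stat3, Irf7, Irf9, Ifnar2, Stat2, Irf2, Ifnar1, Irf3 and Irf1. Counting intervals of neighbours overlapped from Irf9 down to Ifnar1, whereas Stat3, Irf7, Irf3 and Irf1 each stood apart from their neighbours. In the KO-labelled culture the order was Stat3, Ifnar2, Irf2, Ifnar1, Irf3, Irf1, Stat2, Irf9 and Irf7. There only the first and the last stood apart, with Stat3 (interval 45.9 to 50.1 RPKM) above and Irf7 (1.47 to 2.87 RPKM) below the other 7, whose levels ran from 14.1 to 24.8 RPKM with every neighbouring pair overlapping. The 3 lowest of the KO-labelled order, Stat2, Irf9 and Irf7, held places 5, 3 and 2 in the WT-labelled order. All members lay below the highest levels in the table (107 RPKM in WT-labelled and 124 RPKM in KO-labelled cells): Stat3, the most covered, had 0.49 and 0.46 reads per base against maxima of 1.01 and 1.19. Whether reads at the same position were collapsed before counting is not given and was not tested. If they were, high levels and the differences between them would be understated, and the counting intervals would not hold.

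The promoters of the members were searched for the core of the ISRE, a GAAA followed after any 2 bases by another GAAA, and the core of the GAS, TTCNNNGAA, on both strands. The 2 cores can overlap, and each was counted on its own. The windows, from RefSeq on GRCm38.p6, ran from 250 bases before to 50 bases after each gene start, and all 9 members had at least 1 window. An ISRE core was present in 3.44% of all 32851 windows, and a GAS core in 8.30%, and 0.45% held both. In all, 2 members held an ISRE core, Stat2 and Irf2, and 4 held a GAS core: Irf1, Irf2, Ifnar1 and Ifnar2. Stat3, Irf3, Irf7 and Irf9 held neither in these windows, which says only that these letters are not there. The stretches below, 100 bases each, are shown because they let the induced Stat2 and Irf1 be set beside the constitutive Irf2 and beside Irf7, the gene with the largest difference. Capitals mark the ISRE and GAS cores.

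Stat2 (GRCm38.p6, chr10:128270248-128270347, plus strand, 250 to 151 bases before the start, with an ISRE core read on the opposite strand):
Stat2: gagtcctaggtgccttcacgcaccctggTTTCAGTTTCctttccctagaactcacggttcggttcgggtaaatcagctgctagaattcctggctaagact
Irf2 (chr8:46739495-46739594, plus strand, 250 to 151 bases before the start, with an ISRE core followed by a GAS core):
Irf2: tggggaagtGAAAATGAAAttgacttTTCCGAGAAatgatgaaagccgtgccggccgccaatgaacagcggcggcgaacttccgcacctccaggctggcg
Irf1 (chr11:53769874-53769973, plus strand, 140 to 41 bases before the first of its 2 listed starts, with a GAS core):
Irf1: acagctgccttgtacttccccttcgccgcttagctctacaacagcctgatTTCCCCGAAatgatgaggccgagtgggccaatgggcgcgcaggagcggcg
Irf7 (chr7:141266425-141266524, minus strand, 100 to 1 bases before the start, with neither core):
Irf7: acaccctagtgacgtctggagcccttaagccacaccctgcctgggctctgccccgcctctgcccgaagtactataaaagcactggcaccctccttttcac

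Holding a core did not sort the members by their difference. Stat2 and Irf2 share an ISRE core, with log2 ratios of -0.71 and -0.25. Irf1 and Irf2 share a GAS core and lay on opposite sides of 0 (0.35 and -0.25). The members with the lowest ratios, Irf7 and Irf9, held neither core within their windows. The GAS cores of Ifnar1 (TTCACGGAA, 5 bases before the start) and Ifnar2 (TTCCTGGAA, 214 bases before) belong to genes that were close in both libraries.

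Over the whole table the ISRE core went with a larger share of lower genes. Of the 10644 compared genes that could be paired with a window, 6.76% were lower by 2-fold or more in the KO-labelled culture and 3.36% at least 2-fold higher. Of the 403 with an ISRE core, 59 (14.6%) were at least 2-fold lower and 14 (3.47%) at least 2-fold higher. Of the 890 with a GAS core, 62 (6.97%) were lower and 37 (4.16%) higher. The medians were close to 0 in each case, at -0.03 with an ISRE core, 0.00 with a GAS core and 0.01 over all paired genes, so the ISRE difference lay in the lower tail. These are descriptions of 2 libraries, with no test.

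**Figure D3:**
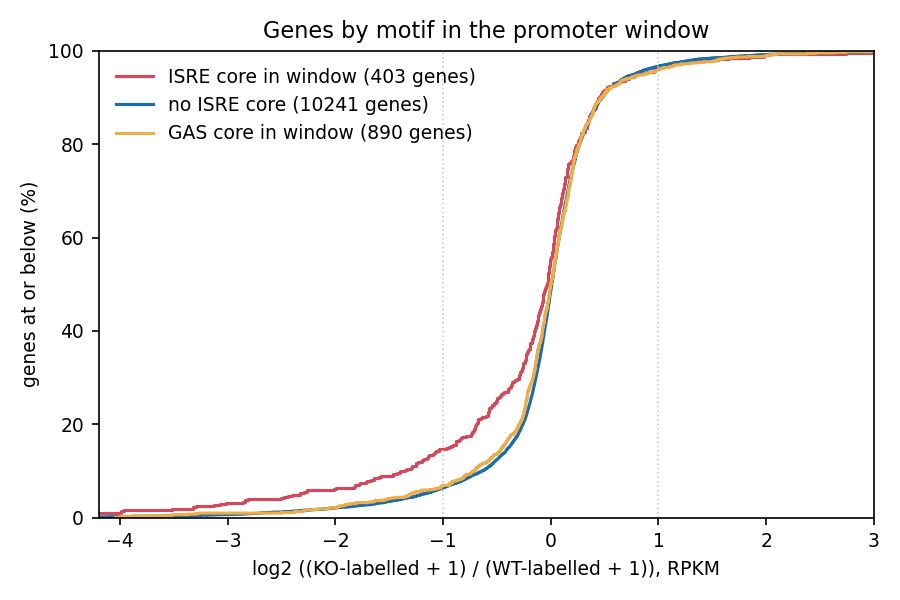
Share of compared genes (vertical axis, percent) at or below each log2 ratio of RPKM + 1 (horizontal axis), for 403 genes with an ISRE core in the promoter window (red), 10241 without one (blue) and 890 with a GAS core (yellow); dotted lines mark 2-fold. At the left dotted line the red curve stands at 14.6% and the yellow curve at 6.97%, and the curves come together to the right of 0.

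The genes upstream of the IRFs lay within 2-fold on the RPKM + 1 scale. Of 15 kinases and adaptors that lead to IRF3 and IRF7, 0 were 2-fold apart, with a median log2 ratio of 0.06. Over all compared genes 7.46% were at least 2-fold lower and 4.42% higher, so 0 of 15 is near these shares. Tbk1 had 28.1 and 35.8 RPKM, 1.27-fold higher in the KO-labelled culture. Lowest in the KO-labelled culture were the adaptor gene Tbkbp1 (3.75 and 1.60 RPKM, 2.34-fold lower without the added 1), Ikbke (23.8 and 15.2 RPKM), which encodes IKK epsilon, and Ticam1 (35.2 and 28.9 RPKM), the adaptor of TLR3. Highest were Tank (18.5 and 28.1 RPKM), a scaffold of TBK1, the ubiquitin ligase gene Traf6 (13.1 and 18.7 RPKM) and Irak4 (9.45 and 12.2 RPKM), a kinase of Toll-like receptor signalling.

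Transcripts of the interferons themselves were scarce. Of 12 ligand genes, 10 had 0 reads in both libraries, among them Ifnb1, Ifng and the 5 listed Ifna genes; a count of 0 allows up to 3 reads per library, as counting error only. Ifne had 2 reads and 0 reads. Ifnz, whose copies lie side by side in the mouse genome and can share reads, had 2.82 RPKM (39 reads) in WT-labelled and 1.43 RPKM (20 reads) in KO-labelled cells.

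Among 19 compared negative regulators of JAK-STAT signalling, 1 was at least 2-fold lower and 0 higher, with a median log2 ratio of -0.05. Over all compared genes 7.46% were at least 2-fold lower and 4.42% higher, so these counts are near the shares over all genes. The gene beyond 2-fold, Usp18, encodes an ISG15 protease that also binds IFNAR2 and damps the receptor, and is itself interferon-induced. It had 22.6 RPKM (378 reads) and 0.473 RPKM (8 reads), a log2 ratio of -4.00, lower than that of Irf7. Socs1 (29.9 and 20.4 RPKM) and Sh2b3 (32.4 and 25.6 RPKM) followed, and Ptpn6 (2.22 and 3.66 RPKM), Socs7 (10.9 and 14.7 RPKM) and Dusp3 (17.4 and 22.4 RPKM) were at the other end.

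Genes that feed Stat3 included 1 that was at least 2-fold lower of 10 compared, the cytokine gene Il6 (23.4 RPKM, 240 reads, and 9.73 RPKM, 101 reads). The share of all compared genes at least 2-fold lower was 7.46%, near that of this list and of the transcription partner list below. The receptor genes Lifr (21.7 and 13.2 RPKM) and Il11ra1 (19.9 and 12.5 RPKM) were lower within 2-fold, while Il6ra (9.91 and 15.9 RPKM) and Lif (16.7 and 23.6 RPKM) were higher in the KO-labelled culture, and Clcf1 (30.2 and 29.2 RPKM) was within counting error. The list's median log2 ratio was -0.19. Among 14 transcription partners and nuclear transport genes, Ifi35 (22.1 and 4.54 RPKM) was the 1 at least 2-fold lower, followed by Nmi (20.5 and 11.8 RPKM); the products of both are interferon-induced and bind each other. Hdac1 (46.5 and 34.9 RPKM) came next, and Ep300 (21.5 and 30.1 RPKM), a coactivator of STATs and IRFs, was the highest, with Hdac2 (28.0 and 30.8 RPKM) and the importin gene Kpnb1 (69.8 and 75.7 RPKM). The median of that list was -0.05.

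Targets of interferon gamma and IRF1 were the list with the lowest median, -1.46 over 9 compared genes. Of these, 7 were at least 2-fold lower and 1 at least 2-fold higher. Among the 7, Cxcl11, Cd274 and Nlrc5 reached 1 RPKM in the WT-labelled culture only, so once compared they could only be lower. Below 1 RPKM in both libraries, and so not compared, were Gbp4 (5 and 18 reads) and Cxcl9 (23 and 0 reads), among others. The count and the median of this list rest partly on that minimum. Irf1 itself was higher in the KO-labelled culture. Lowest on the RPKM + 1 scale were the guanylate-binding protein genes Gbp3 (20.6 and 1.16 RPKM) and Gbp2 (27.5 and 7.94 RPKM), and Nlrc5 (8.20 and 0.513 RPKM). The 2 Gbp genes act in cell-autonomous defence and are much alike in sequence, and Nlrc5 encodes the activator of MHC class I genes. The order depends on the added 1. As ratios of RPKM, Cxcl11 (22 reads and 1 read) was 22.2-fold lower and Cd274 9.77-fold lower, beside 3.47-fold for Gbp2. Type I interferon also raises many genes of this list. The part of either interferon type or of Irf1 in these differences was not tested. Nos2 (1.83 and 5.15 RPKM), the inducible nitric oxide synthase gene, was the 1 higher. Next in rank on the RPKM + 1 scale, though both lower in the KO-labelled culture, were Socs1 and Cd274 (1.69 and 0.173 RPKM), which encodes the ligand of PD-1. Of these, Socs1 was within 2-fold and Cd274 was not. Over all 9 lists without the members, 10 of 80 compared genes were at least 2-fold lower and 1 at least 2-fold higher. Of all compared genes these shares were 7.46% and 4.42%. Of the 10 lower genes, 7 belong to the interferon gamma and Irf1 list. Usp18, also among the 10, likewise reached 1 RPKM in the WT-labelled culture only. The median log2 ratio of the 80 genes was -0.11. With a pseudocount of 0.1 RPKM or by the fold changes of the authors' deposited table, 12 of the 80 were at least 2-fold lower. Of all 13867 compared genes, 1294 and 1227 were lower by these 2 settings.

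**Figure D4:**
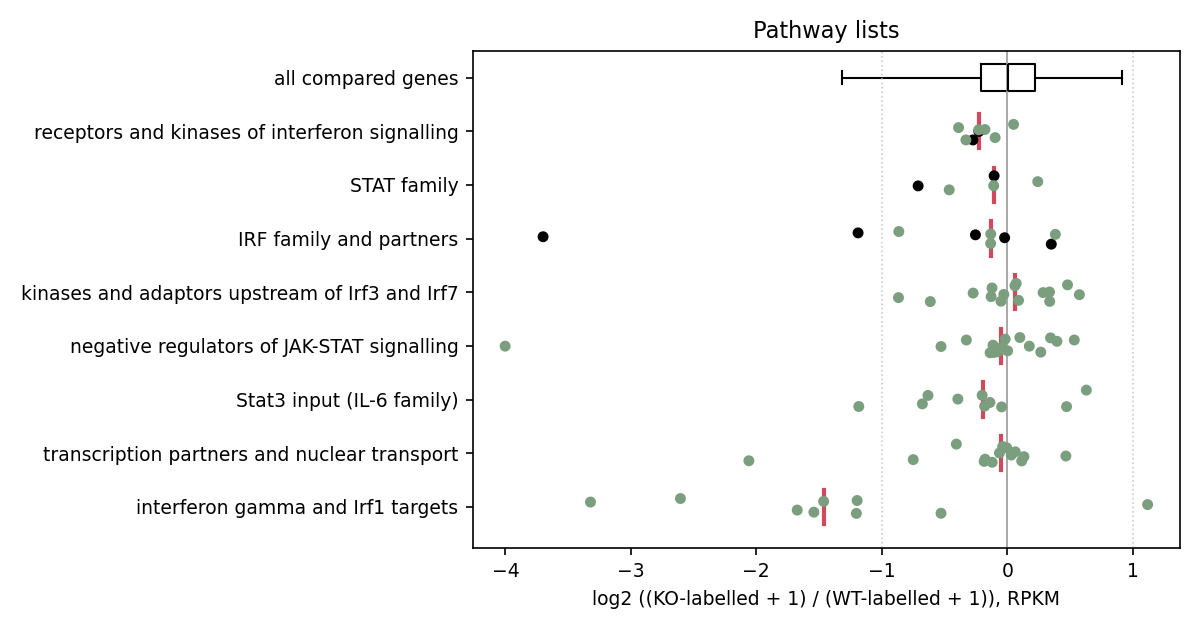
Log2 ratio of RPKM + 1 (horizontal axis) for compared genes of 8 pathway lists, 1 point per gene (black for the 9 members, green for the rest), with the list median as a red bar; the box shows the quartiles of all compared genes and its whiskers the 5th and 95th percentiles. Points lie mostly inside 2-fold (dotted lines), apart from Irf7, Irf9, Usp18, Ifi35, Il6 and most genes of the interferon gamma and Irf1 list. The ligand list, with 1 compared gene, is not drawn.

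The genes nearest to the 2 most different members, by distance over log2(RPKM + 1) in the 2 libraries, were Itm2a (37.7 and 1.99 RPKM, distance 0.07) and Pcp4l1 (40.1 and 2.46 RPKM, distance 0.17) for Irf7, followed by Gpm6b, Kctd12 and Cdo1. For Irf9 they were Ube2l6 (32.4 and 14.1 RPKM, distance 0.04), the ubiquitin-conjugating enzyme gene for ISG15, then Mc5r, Parp9, the MHC gene H2-T23 and Fam212a. The likeness rests on 2 values per gene.

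Other features of the libraries were set beside the induced members. Of 16 leukocyte markers, 4 reached 1 RPKM in a library, with sums of 33.9 RPKM (WT-labelled) and 36.8 RPKM (KO-labelled). The 4 went different ways: Cd14 (19.7 and 23.7 RPKM) and Cd68 (5.15 and 7.40 RPKM) were higher in the KO-labelled culture, while Lyz2 (5.91 and 3.67 RPKM) and Csf1r (1.75 RPKM, 64 reads, and 0.081 RPKM, 3 reads), the macrophage growth factor receptor gene, were lower. The defining genes Tyrobp, Emr1 and Siglech had 0 reads in both, and Ptprc, which encodes CD45, had 4 reads and 0 reads. Of 8 mast cell and basophil markers only Mcpt8 exceeded 1 RPKM (38.0 and 0.624 RPKM), while Fcer1a, Ms4a2 and Cpa3 were at 0 in both libraries. Endothelial markers summed to 4.21 and 0.421 RPKM over 5 genes and epithelial markers to 2.04 and 1.45 RPKM over 5 genes. Behind the epithelial sums, Cdh1, the E-cadherin gene, was lower in the KO-labelled culture (1.80 RPKM, 75 reads, and 0.071 RPKM, 3 reads) and the keratin gene Krt8 higher (0.059 RPKM, 1 read, and 1.04 RPKM, 18 reads). The fibroblast markers Thy1 (9.40 and 72.1 RPKM) and Dcn (29.7 and 12.3 RPKM) also differed. The part of Csf1r, Lyz2, Mcpt8, the endothelial markers, Cdh1, Thy1 and Dcn in the differences of the interferon-induced genes was not tested.

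No editing difference could be read at the members. Of the 654 edited sites listed for the WT-labelled culture and the 110 listed for the KO-labelled culture, 0 were assigned to any of the 9 genes, and 0 to the other genes of the 9 pathway lists. A site not listed is not thereby shown to be unedited.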

How the data were processed

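Poly(A)+ RNA of 1 WT-labelled and 1 KO-labelled culture was sequenced as single-end reads. STAR 2.4.0d, SAMtools and the build mm9 appear in the submitters' processing notes, with no role given. Per the file headers the authors deposited RPKM for each library, a log2 fold change, a log2 GFOLD value and an empirical FDR (a p-value type column, 1 in every row and not used). Per the file headers the deposited editing lists give the count of reads and mismatches per site and the level as a fraction. For gene annotation, counting rule and use of strand the sources used here give nothing. By GENCODE M21, exons of other genes cover at most 9.46% of a member's exon bases (Ifnar2) and 1.19% for Irf7. Reads of near-identical genes (Stat5a with Stat5b, the Gbp, Ifna and Ifnz genes, Il11ra1) can be split in ways that cannot be followed.

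Ratios are log2((KO + 1)/(WT + 1)) of RPKM, a scale that understates differences of low genes; genes at 1 RPKM or more in either library were compared. Whole reads were recovered from the authors' log2 fold changes and 6-digit RPKM values: a single pair of read numbers fitted 17410 of 17981 genes above 0 (96.8%), all 9 members included. Intervals of ratios are exact binomial (Clopper-Pearson, conditional on the sum) and those of levels exact Poisson. No molecular identifiers are named, so reads may not be independent molecules and the intervals cover counting error only. Fold values are of RPKM without the added 1. The planned Fisher test of editing had no site in a member. Promoter windows were paired with genes by symbol or synonym (17923 of 24015 genes). Some genes of the lists are not reported here and were left out of list counts. Members, their classes, lists and naming rules were chosen with earlier results of these data known. Named genes are the 9 members, all listed receptor, kinase, STAT and IRF genes, the 3 highest and 3 lowest compared genes of each other list, and the 5 genes nearest to each member at least 2-fold apart out of genes that reached 10 RPKM; genes beyond these were named after their values were seen. Alternatives were pseudocounts of 0.1 and 0.5, median centring, the authors' fold changes, recovered reads and other minimum levels. Recovery, intervals and motif search were tested on simulated data (Python 3.11.15, SciPy 1.17.1, pandas 2.3.3).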

Additional observations from a re-analysis of the deposited data

How the results depend on the processing

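Of 125 values recomputed under the other settings, 110 stayed within tolerance, 15 moved, and 0 that were 2-fold apart changed sign. The tolerance was the counting error for a member, the mean counting error of its members for a class median, 0.1 for other medians and 1.5 times for counts. Irf3, whose interval includes 0, went from -0.02 to 0.03 by the authors' fold change. With the GFOLD value of the authors' deposited table, which is drawn toward 0, Ifnar1 stood at -0.063, Ifnar2 at -0.066, Stat2 at -0.53, Stat3 at 0, Irf2 at -0.012 and Irf9 at -0.98. The median of the constitutive members was then -0.012, that of the induced members -0.76, that of the other pathway genes 0, and 1 member (Irf7) in place of 2 was at least 2-fold lower. By recovered reads per total, without the added 1 RPKM, the log2 ratio of Irf7 was -4.23. With a minimum of 10 RPKM, 0 other pathway genes were at least 2-fold higher. Genes with an ISRE core at that minimum were 2-fold lower in 38 of 304 (12.5%) and higher in 6 (1.97%). Those with a GAS core were lower in 26 of 665 (3.91%) and higher in 17 (2.56%). Of all 8215 paired genes, 3.91% were lower and 1.85% higher. The medians with an ISRE or a GAS core moved by less than 0.1 under each setting run. No paired analysis was possible because there is 1 library per label, and leaving out a replicate was not possible for the same reason. Depth limits Irf7 in the KO-labelled culture (37 reads) and the genes under 10 reads most.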

Other observations

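The receptor genes Ifnar2, Il10rb, Ifnar1 and Ifngr2 follow each other on chromosome 16 in the RefSeq annotation of GRCm38.p6, and all 4 had the lower value in the KO-labelled culture, with a median log2 ratio of -0.30 (range -0.39 to -0.23). Their neighbours were looked at after this was seen. Of the 10 nearest compared protein-coding genes on each side, 15 of 20 had the lower value in the KO-labelled culture, with a median of -0.16 and a range from -0.81 (Tiam1) to 0.09 (Paxbp1). Over all compared genes 49.2% had the lower value there. The 4 receptor genes lay within the range of their neighbours.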
